A study of Mus musculus with 9 samples.

Results

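The genes described are the S100 proteins and annexins of the mouse, 29 genes of the 19938 genes compared. They were taken by symbol: every probe set with exactly 1 gene symbol of the form S100 followed by a, b, g, z or pbp and its number, or Anxa followed by a number, and for each gene the probe set with the highest mean signal. This gave 17 S100 genes and 12 annexins from 31 probe sets. S100pbp encodes a protein that binds an S100 protein and is not itself of the S100 family, and S100a7a is not a member because its symbol carries a further letter. Total RNA was measured on whole-transcript arrays in 3 groups of 3 arrays: fibroblasts of mouse embryos in culture below passage 3 (MEF), R1, an established line of embryonic stem cells, and pluripotent cells induced from those fibroblasts (iPS, called inducible pluripotent stem cells in the labels). The labels give no genotype, agent or treatment for any group, and do not say whether the iPS arrays come from 1 or several derivations or whether the stem cells grew on feeder cells. The arrays of a line are described as biological repeats, and the p-values rest on the spread between them.

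S100 proteins are small calcium sensors of the EF-hand type that usually act as dimers: binding calcium opens a surface that holds a target protein. Annexins bind phospholipids of membranes when calcium rises, through repeats shared by the family, and take part in exocytosis, endocytosis and the resealing of damaged membranes. The families meet in fixed pairs, of which S100a10 with Anxa2 is the best known: S100a10 has lost the response to calcium and joins with Anxa2 into a complex under the plasma membrane. Several members are abundant in fibroblasts and other mesenchymal cells, and S100a4 has been used as a fibroblast marker under the name fibroblast-specific protein.

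The labels were borne out by marker genes. All 10 fibroblast markers were called lower in R1 and in iPS arrays than in MEF, and all 10 pluripotency markers were called higher in both. A call means an adjusted p under 0.05 in limma together with an absolute difference of 1 or more in log2(signal + 16). Col1a1, a collagen chain, had a mean signal of 10144 in MEF, 785 in R1 and 1229 in iPS arrays, and Thy1 had 1975, 233 and 255. Pou5f1 (Oct4) had 53.1, 4706 and 4137, and Nanog had 46.7, 3205 and 3530. R1 replicate 2 stood apart in the fibroblast markers. Their summed signal was 3407 on that array against 2425 and 2458 on the other R1 arrays, and 8 of the 10 were highest there among R1 arrays. The sums were 3445 to 4194 on the iPS arrays and 33826 to 38824 on the MEF arrays. Values of several members are therefore also given without this array. In such bulk samples, fewer cells of a type and less RNA per cell cannot be told apart.

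Promoter sequences were available for 23 of the 29 genes. The 7 shown, chosen after their values were seen, are those of the neighbouring genes S100a4, S100a5 and S100a6, of which the outer ones fell and the middle one was dim in every group, of S100a11, Anxa1 and Anxa2, which fell, and of Anxa11, which went the other way. Each is the 250 bases before the annotated start, from RefSeq, build GRCm38.p6, 5′ to 3′ on the strand of the gene. In the order of the lines, with Anxa1 last, the windows are chr3:90603520-90603769, chr3:90608272-90608521, chr3:90612644-90612893, chr3:93520246-93520495, chr9:69453433-69453682 and chr14:25841905-25842154 on the plus strand and chr19:20390672-20390921 on the minus strand. Capitals mark the letters TGANTCA, which AP-1 binds, TATAAA, known as the TATA box, GGGCGG, known as the GC box, and GGAATG, which TEAD factors bind, on either strand.
S100a4: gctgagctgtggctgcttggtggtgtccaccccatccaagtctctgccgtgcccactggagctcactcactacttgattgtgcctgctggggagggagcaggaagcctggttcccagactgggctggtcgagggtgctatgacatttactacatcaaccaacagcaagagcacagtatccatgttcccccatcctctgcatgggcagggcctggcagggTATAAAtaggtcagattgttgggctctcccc
S100a5: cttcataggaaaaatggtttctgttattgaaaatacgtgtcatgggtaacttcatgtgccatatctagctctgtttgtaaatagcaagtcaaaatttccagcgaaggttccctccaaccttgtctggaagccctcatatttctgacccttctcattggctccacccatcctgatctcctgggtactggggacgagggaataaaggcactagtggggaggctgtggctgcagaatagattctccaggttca
S100a6: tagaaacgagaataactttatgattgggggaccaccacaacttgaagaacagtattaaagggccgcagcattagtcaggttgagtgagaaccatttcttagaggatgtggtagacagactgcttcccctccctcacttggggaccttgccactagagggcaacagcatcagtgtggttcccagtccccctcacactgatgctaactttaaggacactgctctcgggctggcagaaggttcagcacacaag
S100a11: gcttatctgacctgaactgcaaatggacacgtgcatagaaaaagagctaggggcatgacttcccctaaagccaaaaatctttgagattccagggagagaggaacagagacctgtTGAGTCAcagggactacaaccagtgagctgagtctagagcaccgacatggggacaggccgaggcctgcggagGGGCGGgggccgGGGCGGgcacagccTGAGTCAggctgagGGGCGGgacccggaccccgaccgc
Anxa1: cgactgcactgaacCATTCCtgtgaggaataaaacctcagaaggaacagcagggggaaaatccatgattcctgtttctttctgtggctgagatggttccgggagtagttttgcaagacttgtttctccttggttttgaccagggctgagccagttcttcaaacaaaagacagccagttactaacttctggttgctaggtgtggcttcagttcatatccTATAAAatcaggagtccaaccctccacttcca
Anxa2: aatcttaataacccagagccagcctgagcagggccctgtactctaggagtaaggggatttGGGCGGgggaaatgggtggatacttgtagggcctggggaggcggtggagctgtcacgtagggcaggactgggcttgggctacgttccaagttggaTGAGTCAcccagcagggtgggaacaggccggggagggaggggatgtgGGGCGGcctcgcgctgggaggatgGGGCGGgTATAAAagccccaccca
Anxa11: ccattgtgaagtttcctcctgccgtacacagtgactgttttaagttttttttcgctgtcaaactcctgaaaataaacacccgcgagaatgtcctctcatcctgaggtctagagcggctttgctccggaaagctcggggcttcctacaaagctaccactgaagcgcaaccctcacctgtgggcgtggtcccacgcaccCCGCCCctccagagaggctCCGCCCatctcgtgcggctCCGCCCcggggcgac

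S100a11 held the AP-1 letters at 136 and 38 bases before the start, with 3 GC boxes, and Anxa2 held them at 95 bases, with 3 GC boxes and a TATA box at 17 bases. S100a4 and Anxa1 had a TATA box at 31 and 32 bases, and Anxa1 also the TEAD letters at 236 bases. Anxa11 had 3 GC boxes and 17 CpG dinucleotides, against 2 CpG in S100a4, 3 in S100a5, 3 in S100a6, 2 in Anxa1, 9 in Anxa2 and 11 in S100a11. The windows of S100a5 and S100a6 held none of the 4 sets of letters. Over all 31 windows of members, 4 (12.9%) held the AP-1 letters, against 6.75% of 32851 windows of all genes. The TATA box was in 6 windows (19.4%, against 12.4%), the GC box in 10 (32.3%, against 32.7%) and the TEAD letters in 3 (9.68%, against 12.6%). The median number of CpG was 3 in windows of members and 6 in all windows. The AP-1 letters were also in a window of S100a16 and in that of Anxa10, which were not called in any comparison. They were not in the windows of S100a4, S100a6, Anxa1, Anxa5 and Anxa8, which fell in R1 cells. S100a10, Anxa3 and Anxa6, which fell as well, had no window. These matches describe letters and do not show that a factor binds there.

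The iPS cells were compared with MEF as the cells they were made from, and R1 with MEF as another pluripotent line. Both use the same MEF arrays, so their results are given side by side. In iPS cells 9 of the 29 genes fell and 0 rose. In R1 cells 10 fell and 1, Anxa11, rose. Of all genes tested, 12.7% were called in iPS cells, 7.58% lower and 5.08% higher, and 13.5% in R1 cells, 7.94% lower and 5.56% higher. By the adjusted p alone, 11 members were lower and 1 higher in iPS cells, against 48% of all genes, 23.2% lower and 24.8% higher. The same counts in R1 cells were 14 lower and 2 higher, against 48.9% of all genes, 23% lower and 25.9% higher. The genes that fell in both were S100a4, S100a6, S100a10, S100a11, Anxa1, Anxa2, Anxa3, Anxa5 and Anxa6, and Anxa8 fell in R1 cells. By family, 4 of 17 S100 genes and 5 of 12 annexins fell in iPS cells, and 4 of 17 and 6 of 12 in R1 cells. The median difference over the annexins was -0.70 in iPS and -1.06 in R1 cells, and over the S100 genes -0.03 and -0.09, against 0.02 for all genes in both comparisons.

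**Figure D1:**
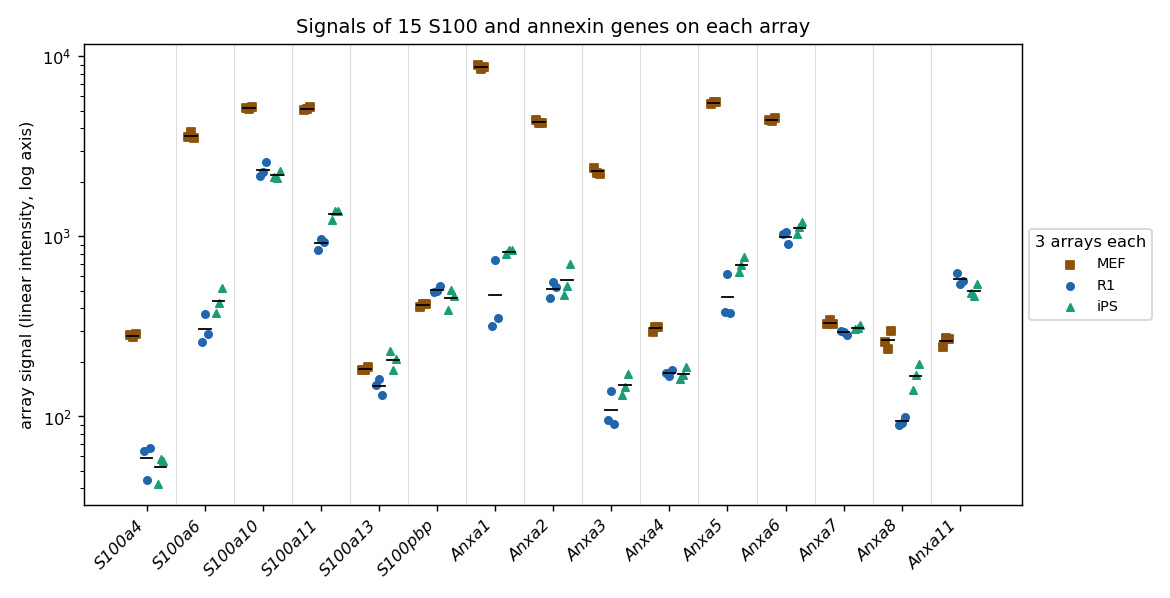
Signal on each array (linear intensity on a log axis) of the 15 genes that were called in a comparison or had a mean signal of 200 or more in a group. Squares are MEF, circles R1 and triangles iPS arrays, 3 of each, and black lines are group means. For the 9 genes that fell in both comparisons every MEF array lies above every R1 and iPS array. Of all genes 24.9% were lower than MEF without overlap in iPS and 25.3% in R1 arrays. For Anxa1 a single R1 array at 744 lies away from the others.

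Among the S100 genes, S100a6 (calcyclin), which binds the ubiquitin-ligase adaptor Cacybp and Anxa11, showed the largest change. Its signals were 3566, 3822 and 3517 on the MEF arrays, 258, 372 and 286 on the R1 arrays and 375, 425 and 519 on the iPS arrays. The MEF arrays lay far above the rest, and every iPS array lay above every R1 array, by a narrow margin. The log2 difference from MEF was -3.01 ± 0.14 (SE) in iPS (adjusted p = 8.19e-08, limma) and -3.52 ± 0.14 in R1 cells (adjusted p = 2.78e-08, limma). S100a4, which binds non-muscle myosin heavy chain, gave 282, 276 and 286 in MEF, 64, 44.6 and 67.2 in R1 and 42.2, 58.1 and 56.9 in iPS arrays. The R1 and iPS arrays overlapped each other and not the MEF arrays. S100a4 fell, with log2 differences of -2.13 ± 0.13 in iPS and -2.01 ± 0.13 in R1 cells (adjusted p = 4.09e-07 and 5.42e-07, limma), and since its signals there were low these differences are understated.

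S100a11, a partner of Anxa1, had signals of 5008, 5113 and 5221 in MEF, 838, 969 and 936 in R1 and 1235, 1389 and 1389 in iPS arrays. The 3 groups were fully separated, with iPS between the others. It fell, with log2 differences of -1.92 ± 0.07 in iPS and -2.47 ± 0.07 in R1 cells (adjusted p = 1.56e-08 and 3.45e-09, limma). A second probe set of S100a11 gave differences of -1.88 and -2.46. S100a10 (p11), the partner of Anxa2, had 5149, 5078 and 5221 in MEF, 2165, 2288 and 2592 in R1 and 2135, 2120 and 2320 in iPS arrays. It fell least among the called S100 genes, with log2 differences of -1.23 ± 0.07 in iPS and -1.13 ± 0.07 in R1 cells (adjusted p = 2.75e-07 and 4.26e-07, limma), and did not pass a test against a difference of 1 (limma's treat; adjusted p = 0.0518 and 0.401).

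Anxa2, which joins S100a10 at the plasma membrane and gathers plasminogen and its activator there, had signals of 4451, 4240 and 4240 in MEF, 455, 560 and 523 in R1 and 474, 534 and 704 in iPS arrays. It fell, with log2 differences of -2.90 ± 0.13 in iPS and -3.04 ± 0.13 in R1 cells (adjusted p = 6.50e-08 and 4.18e-08, limma). The pair thus changed unequally. Within an array, log2(Anxa2) minus log2(S100a10), each with 16 added, was -0.26 ± 0.04 in MEF, -2.16 ± 0.14 in R1 and -1.93 ± 0.22 in iPS arrays (mean ± SD, n = 3). The shift from MEF was -1.91 in R1 and -1.67 in iPS cells, with no overlap between arrays (exact permutation p = 0.10 for each, two-sided, the smallest that 3 against 3 arrays allow; 0.15 after Benjamini-Hochberg adjustment over 3 comparisons). Between iPS and R1 arrays it was 0.23 (exact permutation p = 0.20, adjusted 0.20).

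Anxa1 (lipocortin), a mediator that dampens inflammation through formyl peptide receptors, had signals of 8964, 8540 and 8780 in MEF, 320, 744 and 352 in R1 and 798, 838 and 838 in iPS arrays. R1 replicate 2 stood at 744, near the iPS arrays and above both other R1 arrays. Anxa1 fell, with log2 differences of -3.38 ± 0.25 in iPS and -4.27 ± 0.25 in R1 cells (adjusted p = 1.85e-06 and 3.31e-07, limma). Without R1 replicate 2 the difference in R1 cells was -4.64. Anxa3, a less studied annexin of phagocytic and epithelial cells, had 2402, 2257 and 2226 in MEF, 95, 138 and 91.1 in R1 and 132, 145 and 171 in iPS arrays. It fell, with log2 differences of -3.81 ± 0.14 in iPS and -4.24 ± 0.14 in R1 cells (adjusted p = 1.69e-08 and 7.79e-09, limma), the largest decrease of any member in iPS cells.

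Anxa5, whose protein is used to detect phosphatidylserine on dying cells, had 5442, 5595 and 5557 in MEF, 383, 617 and 375 in R1 and 635, 695 and 765 in iPS arrays. As for Anxa1 and Anxa3, R1 replicate 2 was the highest of the R1 arrays. Anxa5 fell, with log2 differences of -2.96 ± 0.16 in iPS and -3.59 ± 0.16 in R1 cells (adjusted p = 2.49e-07 and 6.38e-08, limma), and -3.81 in R1 cells without R1 replicate 2. Anxa6, which carries a doubled set of annexin repeats, had 4421, 4390 and 4545 in MEF, 1031, 1060 and 904 in R1 and 1031, 1128 and 1201 in iPS arrays. It fell, with log2 differences of -1.98 ± 0.07 in iPS and -2.14 ± 0.07 in R1 cells (adjusted p = 2.06e-08 and 1.07e-08, limma). A second, dimmer probe set assigned to Anxa6, with means of 105 in MEF, 88.7 in R1 and 81.2 in iPS arrays, differed by only -0.32 in iPS and -0.21 in R1 cells.

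Anxa8 had 260, 237 and 298 in MEF, 89.9, 92.4 and 99.7 in R1 and 141, 169 and 197 in iPS arrays, so that the 3 groups were separated with iPS in the middle. It fell by 1.35 ± 0.11 in R1 cells (adjusted p = 3.96e-06, limma), a call lost in the test against a difference of 1 (adjusted p = 0.0644, limma's treat), and differed by -0.61 ± 0.11 in iPS cells, which was under the minimum difference (adjusted p = 0.00111, limma). Anxa4 also stayed under it, at -0.78 ± 0.06 in iPS and -0.77 ± 0.06 in R1 cells (adjusted p = 2.60e-06 and 2.84e-06, limma). Anxa4 had 294, 315 and 315 in MEF, 175, 168 and 181 in R1 and 161, 169 and 187 in iPS arrays, and the MEF arrays did not overlap with the others. Anxa11, an annexin that binds Pdcd6 and tethers RNA granules to lysosomes, went the other way. It had 242, 272 and 271 in MEF, 630, 545 and 564 in R1 and 484, 468 and 545 in iPS arrays. Anxa11 rose by 1.10 ± 0.08 in R1 cells (adjusted p = 1.22e-06, limma), and the difference in iPS cells was 0.89 ± 0.08 (adjusted p = 5.95e-06, limma). The call in R1 was lost with 64 in place of 16 added to the signal (0.98) and in the test against a difference of 1 (adjusted p = 0.966).

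Of the 15 genes of the plot of signals, 3 differed little from MEF. Anxa7 (synexin) differed by -0.09 ± 0.05 in iPS and -0.17 ± 0.05 in R1 cells around signals of 326, 345 and 326 in MEF, 300, 296 and 282 in R1 and 304, 309 and 322 in iPS arrays. S100pbp had 405, 422 and 419 in MEF, 491, 498 and 530 in R1 and 388, 505 and 468 in iPS arrays, and differed by 0.12 ± 0.08 in iPS and 0.28 ± 0.08 in R1 cells. S100a13, which takes part in the release of secreted proteins that lack a signal peptide, had 181, 181 and 189 in MEF arrays and differed by 0.15 ± 0.09 (adjusted p = 0.199, limma) in iPS and -0.29 ± 0.09 in R1 cells. In R1 cells all 3 had an adjusted p under 0.05 (0.0100, 0.0202 and 0.0193, limma) with a difference under the minimum. The other 14 members, 11 S100 genes and 3 annexins (Anxa9, Anxa10 and Anxa13), had group means from 16.3 (S100a8 in R1) to 132 (S100a16 in MEF). Their differences lay between -0.17 (S100a16) and 0.08 (Anxa9) in iPS and between -0.25 (S100a3) and 0.06 (Anxa10) in R1 cells, and 0 of them were called in either comparison. They include S100a8 and S100a9, the subunits of calprotectin in neutrophils, S100b, a marker of glia, and S100g, an intestinal calcium binder. In all, 11 of the 29 members had a mean signal under 50 over all arrays, where signal cannot be told apart from background because no detection calls were used.

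**Figure D2:**
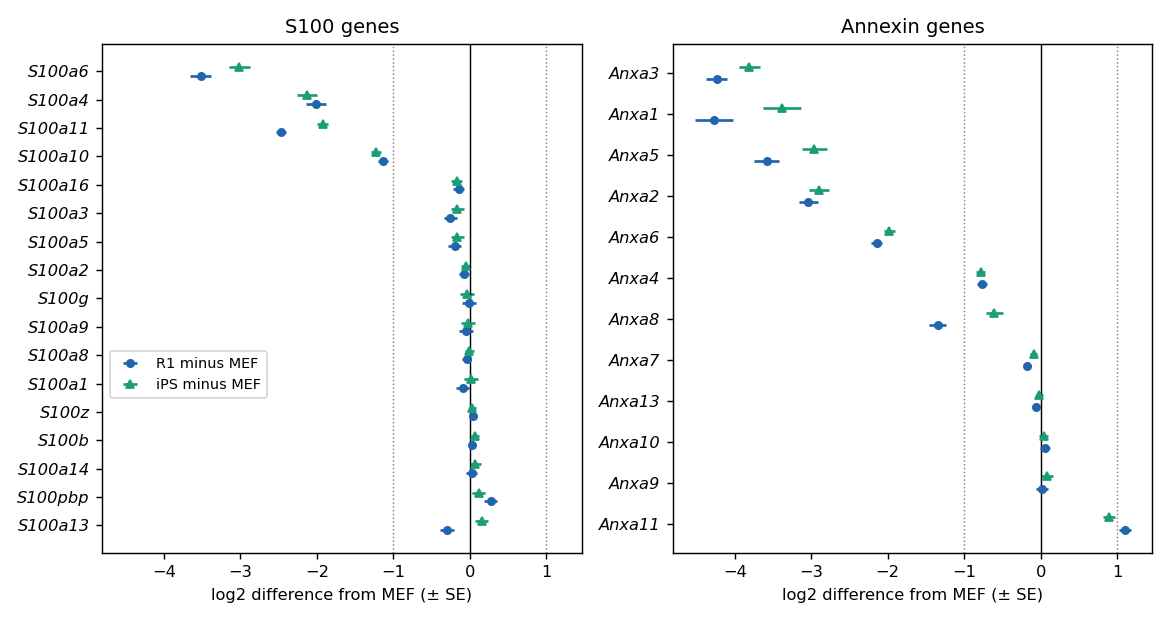
Log2 difference from MEF (log2(signal + 16), ± SE of the fit) of all 17 S100 and 12 annexin genes, circles for R1 and triangles for iPS cells, with dotted lines at the minimum difference of 1. S100a4, S100a6, S100a10 and S100a11 stand left of -1, as do Anxa1, Anxa2, Anxa3, Anxa5 and Anxa6, and the other S100 genes lie close to 0.

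Markers of the cell types in which several dim members are known gave little signal. The 7 neutrophil markers lay between 11.6 and 58.1, the 7 keratinocyte markers between 24.9 and 91.1, the 4 measured glial markers between 37.0 and 113, and the 5 adipocyte markers between 13.6 and 86.2, with 0 called in any comparison. Of 9 macrophage markers only Cd68 was called (1.12 in iPS and 1.36 in R1 cells), and the other 8 lay between 20.8 and 63.1 on all arrays. The summed macrophage markers were 388 to 427 in MEF, 591 to 607 in R1 and 528 to 552 in iPS arrays. Of 6 endothelial markers Pecam1 rose and Emcn fell in both cell types, with summed signals of 289 to 348, 501 to 565 and 410 to 516. Of 7 muscle markers 6 fell in both cell types, with summed signals of 6081 to 7370 in MEF against 668 to 752 in R1 and 704 to 869 in iPS arrays. The part of these cell types in the signals of S100 proteins and annexins was not tested.

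The signal in R1 and iPS cells, relative to that in MEF, differed between members. As a percent of the MEF mean, Anxa3 stood at 4.71% in R1 and 6.51% in iPS cells, Anxa1 at 5.39% and 9.41%, S100a6 at 8.40% and 12.1%, Anxa5 at 8.29% and 12.6% and Anxa2 at 11.9% and 13.2%. These lay within the range of the 10 fibroblast markers, which was 3.57% to 16.7% in R1 and 3.73% to 17.1% in iPS cells. Above that range in both cell types were S100a11 (17.9% and 26.2%), Anxa6 (22.4% and 25.2%), Anxa8 (35.5% and 63.7%) and S100a10 (45.6% and 42.6%). These percentages are of linear signal with no background taken off. Anxa8 had only 237 to 298 on the MEF arrays and 89.9 to 99.7 on the R1 arrays, and the fibroblast markers 855 or more on the MEF arrays. The percentages of Anxa8 therefore do not compare directly with the range of the markers. S100a4 stood at 20.8% and 18.6%, but its signals of 42.2 to 67.2 in R1 and iPS arrays were near the limit of 50, so that it is given no place in this order. Without R1 replicate 2 Anxa1 was at 3.83%, Anxa3 at 4.06%, Anxa5 at 6.85% and S100a6 at 7.48% in R1 cells. S100a4 moved the other way, to 23.3%.

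**Figure D3:**
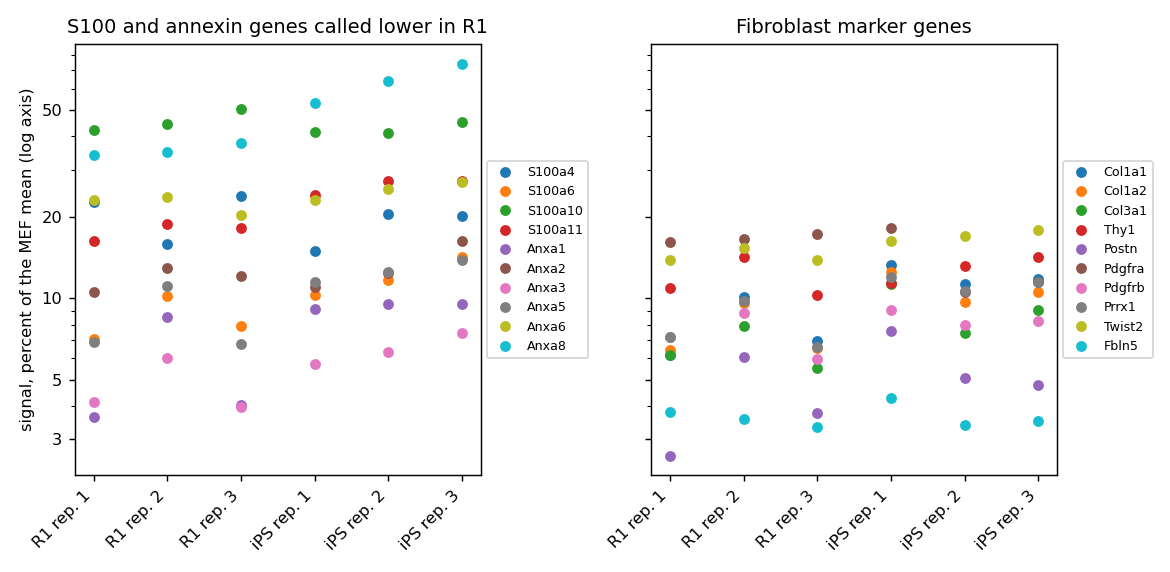
Signal on each R1 and iPS array as a percent of the MEF mean (log axis) for the 10 members called lower in R1 cells (left) and the 10 fibroblast markers (right). S100a10 and Anxa8 lie above the others, and on R1 replicate 2 both Anxa1 (8.5%) and Col1a1 (10.1%) lie above the other R1 arrays.

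In the main cluster of S100 genes 2 members, S100a4 and S100a6, were called, both lower in iPS and in R1 cells. Of all genes 7.58% were called lower in iPS and 7.94% in R1 cells. In the RefSeq gene order, S100a1, S100a13, S100a14, S100a16, S100a3, S100a2, S100a4, S100a5, S100a6, S100a7a, S100a8 and S100a9 follow each other between Chtop and Pglyrp4, and S100a11 and S100a10 are adjacent to each other further along. The cluster members S100a14, S100a3, S100a2, S100a5, S100a8 and S100a9 had MEF means of 17.2 to 46.0, under the limit of 50. With no detection calls, the lack of a call in them does not show that they stayed level. By the adjusted p alone S100a3 was lower in R1 cells (-0.25, adjusted p = 0.0299, limma). S100a5, a gene of olfactory neurons between S100a4 and S100a6, had 31.8 to 44.3 on the MEF arrays. S100a1, S100a13 and S100a16, above the limit of 50, were not called, with differences of 0.02, 0.15 and -0.17 in iPS and -0.09, -0.29 and -0.14 in R1 cells. S100a1 had group means of only 72.0 to 79.5, and without detection calls its expression is not established. S100a7a, the next gene after S100a6, differed by -0.62 in iPS and -0.56 in R1 cells and was not called. Of 15 measured genes of a list of neighbours outside the family, only the zinc transporter Slc39a1 was called (-1.22 ± 0.05 in iPS and -1.68 ± 0.05 in R1 cells), a share near the 7.58% and 7.94% of all genes called lower. By the adjusted p alone 4 of these 15 neighbours were lower and 5 higher in iPS cells, and 5 lower and 7 higher in R1 cells. Of all genes 23.2% were lower and 24.8% higher by that rule in iPS cells, and 23% and 25.9% in R1 cells. Of 14 measured epidermal differentiation genes from the same region, which include proteins with a fused S100 domain, 0 were called, against 12.7% of all genes in iPS and 13.5% in R1 cells. Their MEF means ran from 15.6 (Flg2) to 130 (Sprr1a). Those of Flg2, Rptn, Lce1a1, Sprr3, Lce3a, Smcp, Ivl, Sprr1b and Crnn were under 50. For these too, the lack of a call does not show that they stayed level. By the adjusted p alone 1 of the 14 was lower and 3 higher in iPS cells, and 1 was lower and 0 were higher in R1 cells. The shares of all genes by that rule are those given for the neighbours.

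**Figure D4:**
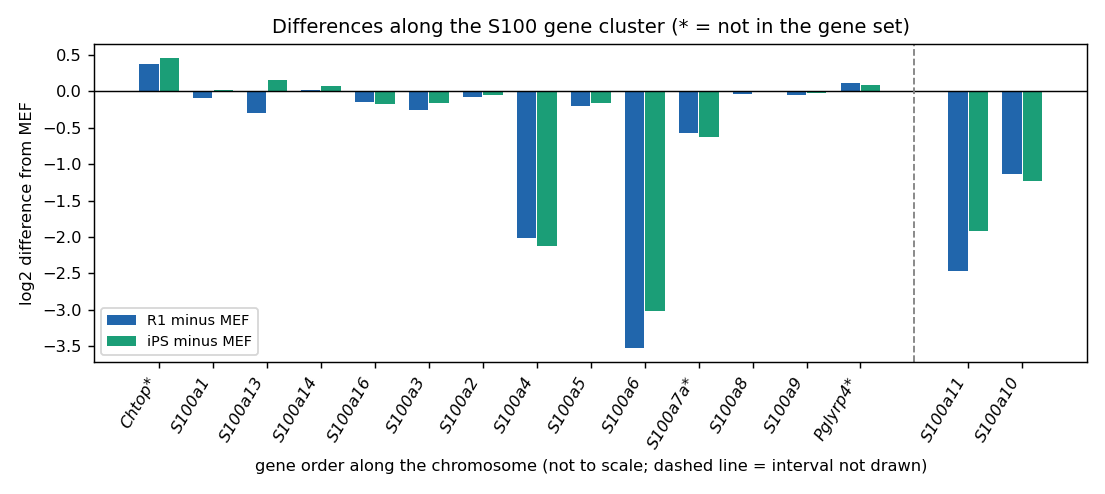
Log2 difference from MEF (bars, R1 left and iPS right for each gene) in chromosomal order along the S100 cluster, with the pair S100a11 and S100a10 after the dashed line; a star marks genes outside the set. S100a6 (-3.52 in R1 and -3.01 in iPS) and S100a4 (-2.01 and -2.13) have the longest bars of the cluster, and S100a5 between them (-0.20 and -0.16) was under the limit of 50 in every group.

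Genes that act with S100 proteins and annexins changed in both directions. Of 31 measured partners, receptors and targets, 11 fell and 2 rose in each comparison (all genes: 7.58% lower and 5.08% higher in iPS, 7.94% and 5.56% in R1 cells), and the median difference was -0.47 in iPS and -0.39 in R1 cells, against 0.02 for all genes. The largest decreases were those of the hyaluronan receptor Cd44 (-2.94 ± 0.14 in iPS and -3.40 ± 0.14 in R1 cells), the ferlin Myof (-2.76 ± 0.13 and -2.64 ± 0.13), the phospholipase Pla2g4a (-2.47 ± 0.10 and -3.06 ± 0.10), the serotonin receptor Htr1b, which S100a10 binds (-2.41 ± 0.16 and -2.62 ± 0.16), and tissue plasminogen activator (Plat, -2.21 ± 0.07 and -2.57 ± 0.07). Ahnak, a large scaffold held by the S100a10 and Anxa2 complex, fell, with log2 differences of -1.98 ± 0.09 in iPS and -2.01 ± 0.09 in R1 cells. The myosin Myh9, a target of S100a4, fell, with log2 differences of -1.80 ± 0.07 in iPS and -2.06 ± 0.07 in R1 cells. The genes that rose were ezrin (Ezr, 1.70 ± 0.05 in both) and Hltf (1.42 ± 0.07 and 1.24 ± 0.07), a chromatin factor that the S100a10 and Anxa2 complex binds. Outside the rule for named genes, Pdcd6, the partner of Anxa11, differed by -0.10 in iPS and -0.09 in R1 cells and was not called.

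Of 30 measured other calcium-binding proteins of the EF-hand type, 11 fell in iPS and 12 in R1 cells, and 1 rose in each. Their median was -0.54 and -0.64, against 0.02 for all genes in both comparisons. Of all genes 7.58% were called lower and 5.08% higher in iPS, and 7.94% and 5.56% in R1 cells. By the adjusted p alone 20 of the 30 were lower in each, and 2 were higher in iPS and 4 in R1 cells. The shares of all genes by that rule were 23.2% lower and 24.8% higher in iPS, and 23% and 25.9% in R1 cells. Ehd2, which shapes caveolae, fell, with log2 differences of -3.25 ± 0.10 in iPS and -3.75 ± 0.10 in R1 cells, the calpain Capn2 with -3.20 ± 0.10 and -3.34 ± 0.10, Ncs1 with -2.86 ± 0.13 and -3.09 ± 0.13, and the reticulum protein Rcn3 with -2.36 ± 0.12 and -2.60 ± 0.12. Grancalcin (Gca) rose by 2.84 ± 0.14 and 2.82 ± 0.14. Of 21 measured calcium-dependent membrane binders and repair proteins, 5 fell and 0 rose in each comparison, with a median of -0.52 and -0.49. The called shares and median of all genes beside them are those given above. Cav1, the coat protein of caveolae, fell, with log2 differences of -3.67 ± 0.15 in iPS and -4.03 ± 0.15 in R1 cells, acid sphingomyelinase (Smpd1) with -1.60 ± 0.06 and -1.49 ± 0.06, and the membrane tether Esyt2 with -1.46 ± 0.06 and -1.64 ± 0.06.

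Between the pluripotent lines themselves, 0 of the 29 members were called, against 0.461% of all genes, 0.296% higher in iPS and 0.166% lower (limma). An unadjusted p under 0.05 was found for 9 members. The share of all genes under that threshold was not counted, so this number has no like share beside it. By the adjusted p without the minimum difference, 4 members were higher in iPS cells and 0 lower, against 8.52% of all genes, 4.12% higher and 4.4% lower. These were Anxa8, at 0.74 (95% interval of the fit 0.49 to 0.99; adjusted p = 0.00445, limma), Anxa5 at 0.62 (0.26 to 0.99; adjusted p = 0.0463, limma), S100a11 at 0.54 (0.39 to 0.69; adjusted p = 0.00158, limma) and S100a13 at 0.45 (0.25 to 0.65; adjusted p = 0.0146, limma). S100a13 had signals of 149, 161 and 132 in R1 and 231, 181 and 209 in iPS arrays, and its neighbour S100a1 differed by 0.11. Anxa1 differed by 0.89 (0.32 to 1.45; adjusted p = 0.0625, limma) and S100a6 by 0.51 (0.19 to 0.82; adjusted p = 0.0561, limma). Arrays did not overlap for 7 members (24.1%), all of them higher in iPS cells: the 4 above, Anxa1, S100a6 and Anxa7. Of all genes 9.84% were higher in iPS cells without overlap.

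R1 replicate 2 bears on these values. It was the highest of the R1 arrays for 7 of the 10 members that fell in R1 cells, and for 29.7% of all genes. Without it, Anxa1 was called, at 1.26 ± 0.06 (adjusted p = 3.57e-05, limma), and 7 members passed the adjusted p alone, all higher in iPS cells, against 4.11% of all genes. The additional ones beside Anxa1 were Anxa3 (0.59 ± 0.09; adjusted p = 0.00807, limma) and S100a6 (0.65 ± 0.12; adjusted p = 0.0159, limma), and Anxa5 stood at 0.85 ± 0.07. S100a4 moved the other way, from -0.12 to -0.26 ± 0.10, and did not pass (adjusted p = 0.186, limma). On all arrays, R1 replicate 2 included, 9 of 10 fibroblast markers had a higher mean in iPS than in R1 cells. Their median difference was 0.35, and 0 were called. By the adjusted p alone Col1a1, Prrx1 and Twist2 were higher in iPS cells (adjusted p = 0.0288, 0.0235 and 0.0412, limma). Pdgfra had a lower mean in iPS cells and did not pass. The part of these markers in the differences was not tested. Among the iPS arrays the summed fibroblast markers were highest on replicate 1 (4194), on which S100a4, S100a6, S100a11, Anxa1, Anxa2, Anxa3, Anxa5, Anxa6 and Anxa8 each had their lowest iPS signal. S100a10 did not (2135, 2120 and 2320). The markers Thy1 (226, 260 and 280) and Twist2 (199, 208 and 218) were also lowest on replicate 1, and the other fibroblast markers were highest there. The share of all genes lowest on that array was not counted, and this pattern was not tested. S100a10 (-0.10, 95% interval -0.25 to 0.06), Anxa2 (0.14, -0.15 to 0.43), Anxa4 (-0.02, -0.16 to 0.12) and S100a4 (-0.12, -0.40 to 0.16) did not pass, and their intervals leave out a difference of 1 in either direction.

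**Figure D5:**
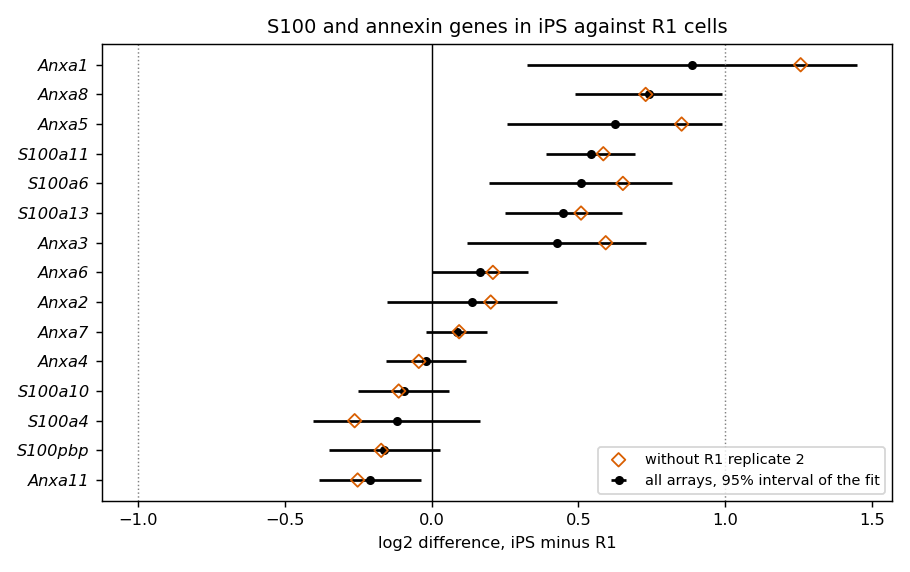
Log2 difference of iPS minus R1 cells for the 15 genes with full values: black circles with 95% intervals of the fit on all arrays, open diamonds without R1 replicate 2, dotted lines at a difference of 1. Anxa1 moves from 0.89 to 1.26 without that array, past the dotted line, while Anxa8 (0.74 and 0.73) and S100a11 (0.54 and 0.58) hardly move.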

How the data were processed

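The authors deposited a linear intensity for every probe set on every array (4 to 18820); all are powers of 2 whose exponents have 2 decimals. GCOS 1.4 is named per the submitters' processing notes, without a role; the steps of summarization and normalization were not given in the sources used here. Array medians were 78.2 to 83.3, so no normalization was added. Of 35557 probe sets, 21789 had 1 gene symbol, 1621 several and 12147 none in the platform annotation. Gene identifiers of all 31 member probe sets were found in RefSeq (GRCm38.p6) with 0 symbols changed.

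All 9 arrays were fitted together on log2(signal + 16), 1 coefficient for each group, with limma 3.58.1 (R 4.3.3; 6 residual degrees of freedom), adjusted by Benjamini-Hochberg over all 19938 genes. Precision is limited by 3 arrays a group. The fit was tested on simulated data. Members and gene lists were chosen with earlier results of these data known. Values in full are given for members called in any comparison or with a group mean of 200 or more; of each list, mainly the called genes with the largest differences are named. Protein sequences were not used here. Alternatives covered normalization, the added constant, dim genes, probe sets, thresholds, a trend with intensity, replicate numbers as blocks, and each array left out in turn.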

Additional observations from a re-analysis of the deposited data

Results flagged for a closer look

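For 4 genes the change from MEF differed between iPS and R1 cells by limma's test of the difference itself (adjusted p under 0.05, with no minimum difference), each higher in all 3 iPS arrays than in all 3 R1 arrays. MEF drops out of this difference, so it is the same test of iPS against R1 as given above and not a further result. Of all genes 4.12% were higher in iPS cells by that rule, and 9.84% were higher without overlap. The difference was 0.74 for Anxa8, 0.62 for Anxa5, 0.54 for S100a11 and 0.45 for S100a13, on the log2 scale. For S100a13 the difference from MEF was 0.15 in iPS cells, which did not pass (adjusted p = 0.199, limma), and -0.29 in R1 cells. Without R1 replicate 2 the values were 0.73, 0.85, 0.58 and 0.51.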

How the results depend on the processing

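Counts of called members kept within 1.5 times under all but the following alternatives. With no minimum difference 1 member was called higher in iPS against MEF, 2 in R1 against MEF and 4 in iPS against R1, and all genes called numbered 9572, 9750 and 1699. With 64 added to the signal 0 members were called higher in R1 against MEF and 45 genes in all in iPS against R1. The test against a difference of 1 gave 0 members higher in R1 against MEF, and 1643 genes in all in iPS against MEF and 10 in iPS against R1. Leaving out each array in turn gave 9 members lower in iPS against MEF and 10 lower and 1 higher in R1 against MEF every time, and 0 to 1 higher in iPS against R1, where only leaving out R1 replicate 2 gave the 1. All genes called then ranged from 2475 to 2594, 2677 to 2738 and 79 to 107. Among the 15 genes with full values, differences of iPS against R1 that turned their sign were uncalled: Anxa2 ranged from -0.021 (without iPS replicate 3) to 0.26 (without iPS replicate 1), and Anxa4 from -0.075 (without iPS replicate 3) to 0.026 (without iPS replicate 1), with 0.0063 without R1 replicate 3. Of the other 14 members, 6 turned their sign without R1 replicate 2, to values between -0.035 and 0.034. By the rule that every same-numbered pair must correlate above 0.1, the replicate numbers did not pair the arrays (correlations of same-numbered arrays from -0.08 to 0.24, above 0.1 in 4 of 9 pairs, against 3 of 18 differently numbered pairs), although the 3 pairs of replicate 1 arrays had the highest values (0.21 to 0.24), and with the replicate number as a block, which in this balanced design leaves every difference as it is, 9 members were lower in iPS and 10 lower and 1 higher in R1 against MEF, and 0 in iPS against R1. With no detection calls, differences of the 11 members with a mean signal under 50 are not measured reliably.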
